A study of Mus musculus with 4 samples.

Results

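Dataset 1, on neurogenesis in the adult hippocampus, holds 14367 nuclei with a deposited cluster, and 60 of them carry the label Peri. That name stands for pericytes. These 60 nuclei were taken by that label alone and are described here across genes, against the other 12 clusters. The label was first set against marker genes. The paper named these nuclei pericytes by Tbx18 and Slc6a13, which are also among the markers used here, so this is no independent check.

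The nuclei came from the left dentate gyri of male and female young-adult mice that carried a tamoxifen-inducible Cre recombinase (CreERT2) and CAGfloxStop-Sun1/sfGFP on a C57BL/6J background, pooled into 1 library for each time after tamoxifen (weeks 1, 2, 4 and 8, called w1, w2, w4 and w8). Once recombination has happened, Sun1/sfGFP marks the nuclear membrane of the recombined cell and of everything that descends from it, and GFP+ nuclei were sorted by FACS for Chromium 10x 3′ end sequencing. All 4 libraries share the genotype, the tamoxifen and the sort, their labels name the sorted cells adult-born granule cells, and no library without Cre or without tamoxifen was analysed here.

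Pericytes are the mural cells that sit inside the basement membrane of capillaries and are known by Pdgfrb, Rgs5, Higd1b, Kcnj8 and Abcc9. The leptomeninges are the thin membranes that cover the brain and follow its larger vessels inwards, and their fibroblast-like cells are known for collagens, basement membrane proteins, retinoic acid synthesis, bone morphogenetic proteins and solute carriers. Single-cell atlases call these fibroblast-like cells vascular leptomeningeal cells. Both kinds of cell lie next to vessels, and Tbx18 is known from both.

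The 60 nuclei were unevenly spread over the libraries. The w1 library held 18 of them among 2867 nuclei (0.628%, 95% Clopper-Pearson interval 0.373 to 0.990%), the w2 library 40 of 4243 (0.943%, 0.674 to 1.28%) and the w4 library 2 of 3831 (0.0522%, 0.00632 to 0.188%). The w8 library had 0 of 3426, which allows a share of up to 0.0876%. The interval of w4 lay below those of w1 and w2, which overlapped. Together the Peri nuclei carried 316576 unique molecular identifiers (UMIs): 98285 in w1, 212118 in w2 and 6173 in w4. A Peri nucleus had 3129 to 10353 UMIs in w1 (median 5275), 2694 to 8634 in w2 (median 5408) and 2789 and 3384 in w4. The largest mitochondrial share in a Peri nucleus was 0.127%. No 2 Peri nuclei had the same barcode, and 27 barcodes over all files were repeats. Whether a Peri barcode also occurred outside Peri was not counted.

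Each week is 1 pool of animals, so weeks were not compared with a test. Nor were clusters, because they had been made by the authors on these same expression values. Levels are given as UMIs of a gene per 1000000 UMIs of the same nuclei (CPM), and exact 95% Poisson intervals are printed for some summed lists. Levels by library are printed without an interval, and those of w4 rest on 2 nuclei and 6173 UMIs. All intervals cover counting error only. The genes of this report are compared within a gene between groups of nuclei, and CPM is not divided by gene length, so levels of different genes are not ranked against each other.

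One w1 nucleus stood apart from the other 59 and is named here first, since it bears on several values below. It was the deepest of the 60, with 10353 UMIs, and had 0 UMIs of Cped1, Ranbp3l, Tbx18, Slc6a13 and Dcn, the 5 markers of the set. The other 59 nuclei had UMIs of at least 2 of these 5 genes: 19 nuclei of all 5, 24 of 4, 13 of 3 and 3 of 2. Several genes of the choroid plexus, the epithelium that makes cerebrospinal fluid, were concentrated in that nucleus. It held 82 UMIs of the choroid plexus and ependyma list against 45 in the other 59 together, among them 50 of the 56 UMIs of Ttr (transthyretin, a carrier of thyroid hormone in cerebrospinal fluid) and all 8 of Otx2. It also held all 245 UMIs of Htr2c, a serotonin receptor, and 51 of the 56 of the bicarbonate transporter Slc4a10, both genes chosen after their values were seen. Kl, also of the choroid plexus and ependyma list, went the other way, with 8 UMIs in this nucleus and 38 in the other 59. Foxj1, Ccdc153 and Dynlrb2 of that list had no UMI in Peri. Values without this nucleus are given where it turned a direction or moved a count by more than 1.5 times.

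The 5 marker genes were found in every library that held Peri nuclei, apart from Dcn in w4. Cped1 had 2177 CPM in w1, 2376 in w2 and 2754 in w4 and was seen in 59 of the 60 nuclei. The highest other cluster was RGL, the radial glia-like stem cells, and the Peri level was 24.4 times its level (21.8 to 27.2). Ranbp3l, which encodes a Ran-binding protein that acts in SMAD export from the nucleus, had 1272, 2286 and 4212 CPM in w1, w2 and w4, 12.9 times (9.75 to 17.5) the level in the Astro cluster. Both genes were thus also present at lower levels in glial clusters.

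Tbx18, a T-box transcription factor of mesothelial and mural lineages, had 275 CPM in w1, 330 in w2 and 324 in w4, and the next level was 1.92 CPM in GCmat2, from 3 UMIs. Per nucleus it was sparse, with a median of 1.5 UMIs in w1 and 1 in w2 and a maximum of 9. Slc6a13, the GABA and taurine transporter GAT2, had 254 CPM in w1, 783 in w2 and 2268 in w4. Only 8 of the 18 w1 nuclei had a UMI of it, against 35 of the 40 w2 nuclei. Dcn, which encodes the collagen-binding proteoglycan decorin, had 224 CPM in w1 and 283 in w2 and no UMI in the 6173 of w4. The levels of the last 3 genes were at least 22.9-fold (Tbx18), 47.4-fold (Slc6a13) and 19-fold (Dcn) higher in Peri than in any other cluster. Those bounds are set by the Oligo cluster, whose 45 nuclei have the smallest total of UMIs and no UMI of the 3 genes, so that 3 UMIs (13.7 CPM) was taken as its limit. With every nucleus thinned to 2000 UMIs, 60.0% of the Peri nuclei still had a UMI of Slc6a13, 41.7% of Dcn and 40.0% of Tbx18, and 0% of the Oligo nuclei had one of any of the 3.

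**Figure D1:**
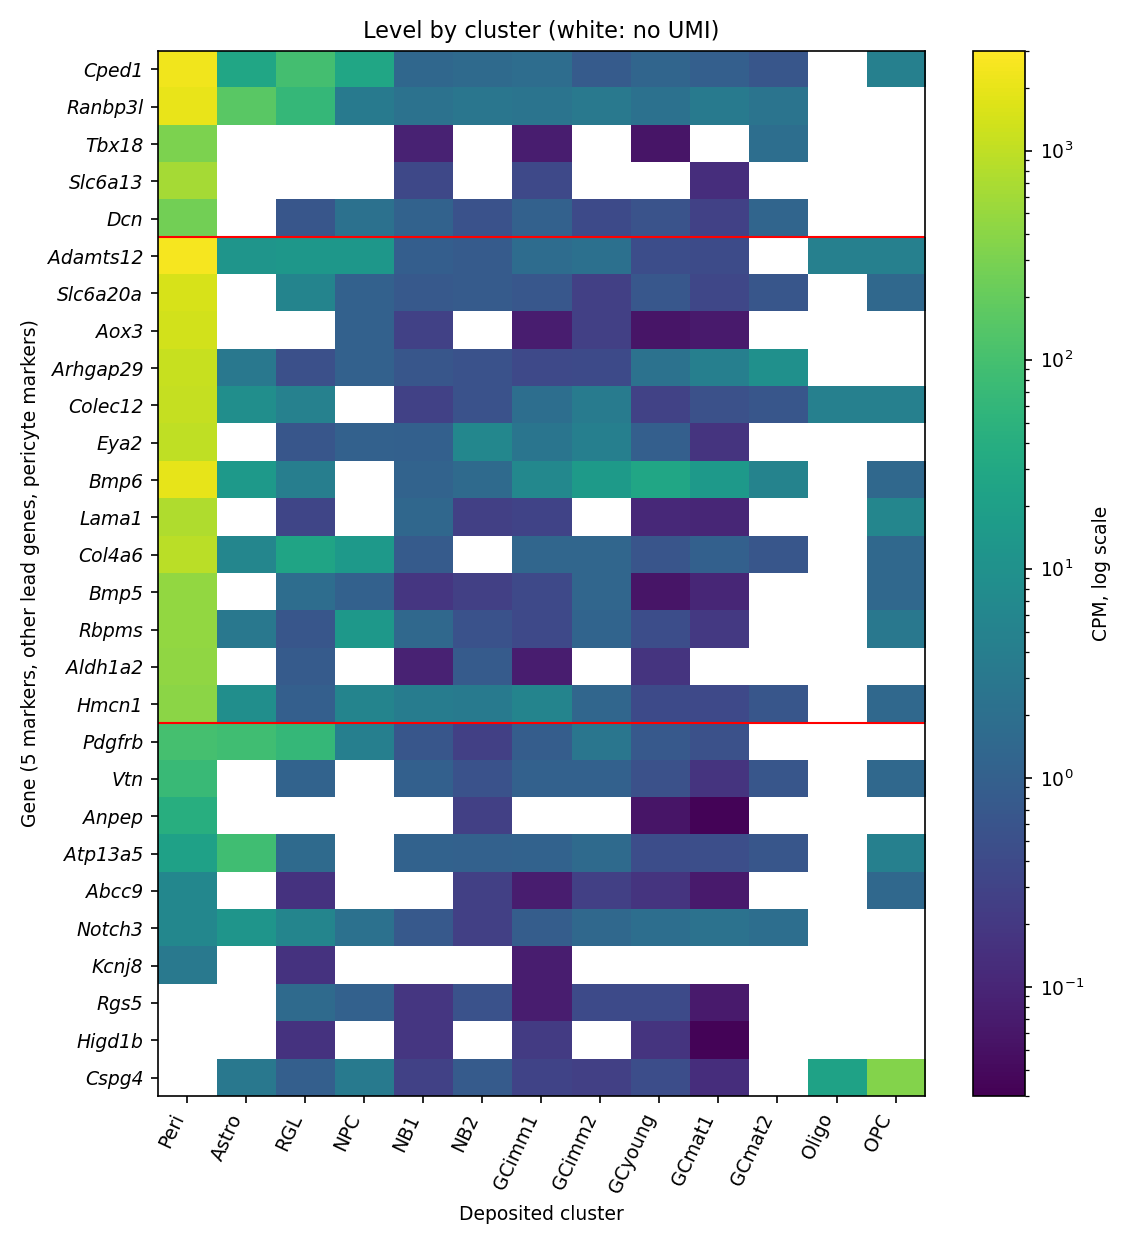
Level of each gene (rows) in each deposited cluster (columns) as CPM on a log colour scale, with white for no UMI. From top to bottom, the red lines divide the 5 marker genes, the other lead genes named by rule and the pericyte markers. In the Peri column the upper blocks run from 259 CPM (Dcn) to 2593 CPM (Adamts12). The pericyte block is lower there, from 101 CPM (Pdgfrb) and 72.7 CPM (Vtn) down to white for Rgs5, Higd1b and Cspg4.

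The label was then set against lists of cell type markers, chosen with earlier results of these data known. Over all 18568 features with at least 20 UMIs in the kept nuclei, 18.0% had their highest level in Peri, so that share is the background for what follows. The same share was 20.4% in NPC and 11.0% in Oligo. Some features reach the 20 UMIs only through the Peri nuclei themselves, and over the 18492 that reach them in the other clusters the share was 17.6%. Of the vascular leptomeningeal list, 12 of 12 members had their highest level in Peri. Tbx18, Slc6a13, Lum and Slc22a6 pass the minimum only through Peri, and 8 of the 8 others were highest there. The median ratio of the 12 to the highest other cluster was 23.6, against 0.271 over all tested features. Besides the 5 markers the list held Slc6a20a, Eya2, Bmp6, Col1a1, Col1a2, Lum (12 UMIs) and Slc22a6 (16 UMIs). Summed, the list had 8323 CPM in w1, 11729 in w2 and 12474 in w4, and between 0 CPM (Oligo) and 209 CPM (Astro) in the other clusters. Every Peri nucleus had at least 5 UMIs of it, and that minimum was the nucleus without the 5 markers, whose 5 UMIs were all of Bmp6.

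The pericyte list gave another picture. Of its 10 members, 6 could be tested and 2 of these, Vtn and Pdgfrb, had their highest level in Peri. Pdgfrb, the receptor that pericytes need for recruitment to vessels, had 91.6 CPM in w1, 104 in w2 and 162 in w4. Its level was 1.13 times that of Astro, and the counting interval of that ratio (0.665 to 1.92) held 1. Without the w4 nuclei Pdgfrb was no longer highest in Peri. Vtn, which encodes the adhesive glycoprotein vitronectin, had 23 UMIs in 15 nuclei and was at least 5.32-fold higher than in any other cluster.

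Several members known as specific to pericytes were at or near 0. Rgs5, a regulator of G-protein signalling, Higd1b and the proteoglycan gene Cspg4 had no UMI in the 316576, and that count of 0 bounds each at 9.48 CPM. The subunits of the pericyte potassium channel had 1 UMI (Kcnj8) and 2 UMIs (Abcc9). Notch3 had 2 UMIs in 1 nucleus, and the 7 UMIs of Atp13a5 were all in 1 w2 nucleus. Anpep, an aminopeptidase, had 13 UMIs in 11 nuclei (41.1 CPM) and fell short of the 20 UMIs needed over all clusters, although its level elsewhere was at most 0.270 CPM (NB2). With no minimum of UMIs, Anpep, Kcnj8 and Abcc9 were also highest in Peri, which makes 5 of 10 pericyte markers, against 14.2% of the 26891 features with a UMI. Summed, the pericyte list had 80 UMIs or 253 CPM in Peri (200.4 to 315), inside the range of the other clusters (3.20 CPM in GCmat2 to 355 in OPC), and 26 of the 60 nuclei had none. The level of OPC was almost wholly Cspg4, a gene also known from oligodendrocyte precursors, at 348 CPM. Without Cspg4 the pericyte list was highest in Peri, at 253 CPM against 191 in Astro (147 to 244), and these intervals overlapped. All 12 leptomeningeal markers thus had UMIs, while 3 of the 10 pericyte markers had none and Vtn and Anpep were well above their levels elsewhere. The leptomeningeal list holds the 5 markers of the set and was chosen with earlier results of these data known. The contrast of the 2 lists is thus no independent check of the label. The nuclei are therefore called Peri nuclei by their label and described by their genes.

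Markers of other vascular cells had few UMIs. Of the smooth muscle list, Acta2, Myh11, Cnn1 and Des had no UMI, but 4 of the 5 tested members had their highest level in Peri. These were the myosin light chain kinase gene Mylk (29 UMIs), Lmod1 (23 UMIs), Tpm2 (8 UMIs) and Tagln (3 UMIs). Summed, the list had 199 CPM in Peri (153 to 255) and 3.85 to 14.9 CPM in the other clusters. Of the 10 endothelial markers 7 had no UMI, including Cldn5, Pecam1 and Kdr, and 2 of the 9 tested were highest in Peri (1 of the 8 that reach 20 UMIs outside Peri, since Cdh5 passes only through Peri). The list summed to 212 CPM (164 to 269), above the 134 CPM of NPC, the next cluster. Slco1a4, an organic anion transporter, was 1.54 times NPC (0.897 to 2.58), and 6 of its 24 UMIs were in the nucleus without the 5 markers. Most of the other endothelial UMIs were of Cdh5, which encodes the adherens junction protein VE-cadherin. It had 36 UMIs in 25 nuclei, at 112 CPM in w1 and 118 in w2, and was at least 8.33-fold higher than in any other cluster. The microglia and macrophage list had 17 UMIs in all, and 50 of the 60 nuclei had none.

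Of the 8 markers of the arachnoid barrier, the tight cell layer below the dura, 6 were tested and 4 had their highest level in Peri (3 of the 5 that reach 20 UMIs outside Peri). Slc22a8, an organic anion transporter, had 40.7, 123 and 1134 CPM in w1, w2 and w4. Ptgds, the prostaglandin D2 synthase, had 682, 2574 and 12636 CPM, but was only 1.94 times (1.68 to 2.25) the level of oligodendrocytes, which are known to make it. Abcg2 (114 CPM against 87.4 in OPC) and Dpp4 (3.16 CPM against 1.93 in NB1) were the others highest in Peri. For Dpp4 that is under the 9.48 CPM of 3 UMIs. Slc47a1 and Cdh1, which encodes E-cadherin and marks the barrier layer, had no UMI. The arachnoid barrier list was therefore represented in part.

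Neuronal genes were low, while glial genes were so only in part. None of 8 oligodendrocyte, 8 oligodendrocyte precursor and 10 neuron markers had its highest level in Peri. The neuron list had 51 UMIs in all and at most 5 in any nucleus. Its summed level was the lowest of the 13 clusters, at 161 CPM against 428 to 10102 in the others. Of the 10 astrocyte and radial glia markers only Gjb6, a gap junction gene, was highest in Peri, 2.05 times (1.43 to 2.98) Astro. Summed, that list had 2328 CPM in Peri, against 118 (Oligo) to 12324 (Astro) in the other clusters. The glutamate transporter gene Slc1a3 had 1730 CPM in w1 and 1900 in w2, which was 0.382 of the level in RGL, and it was seen in 56 nuclei. Aqp4 and Grin2c had no UMI. Pdgfra, shared by precursors of oligodendrocytes and by fibroblasts, had 202 CPM against 850.1 in OPC. Of 9 tested cell cycle genes none was highest in Peri, and Mki67 and Cdk1 had no UMI.

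Sun1, to whose product the fluorescent tag is fused, had 22 UMIs in Peri (69.5 CPM), which is 0.730 of its level in NPC (0.435 to 1.18). The reads of the endogenous Sun1 gene and of the tag could not be separated in these counts.

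**Figure D2:**
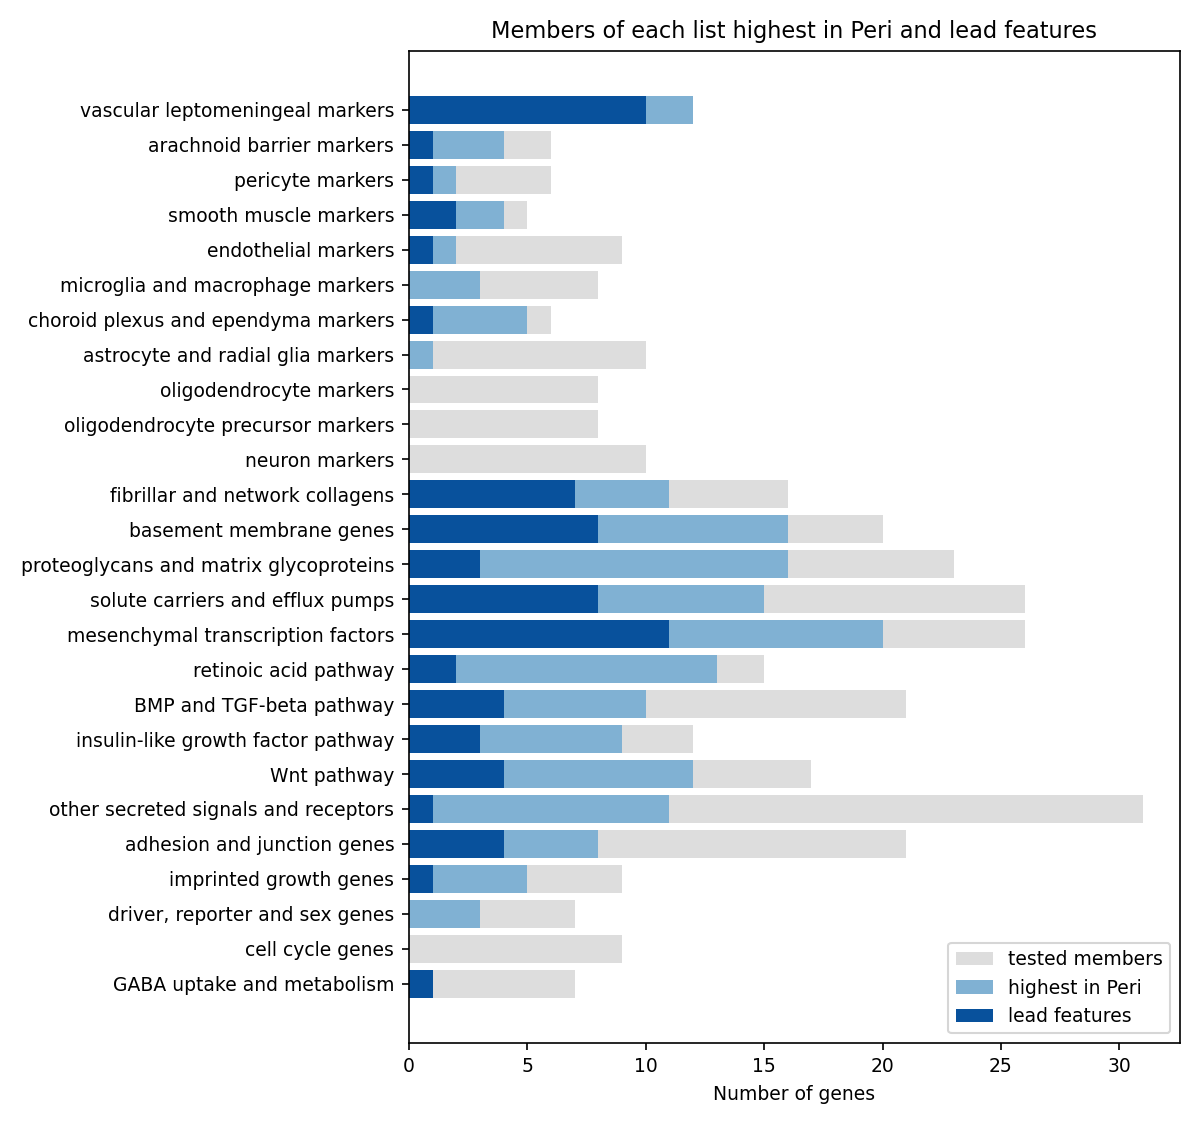
Members of each gene list with at least 20 UMIs over all kept nuclei (grey), those with their highest level in Peri (light blue) and those that are lead features (dark blue), as numbers of genes. All 12 vascular leptomeningeal markers are highest in Peri (8 of the 8 that reach 20 UMIs outside Peri), against 2 of 6 pericyte markers and 0 of 10 neuron markers. The lists were chosen with earlier results of these data known.

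To describe which genes set Peri apart, a lead feature was defined as one with at least 20 UMIs in Peri, UMIs in both w1 and w2 and at least 4 times the level of the highest other cluster, each other cluster being counted with 3 UMIs or more. Of all tested features, 211 (1.14%) were lead features, and 88 of these reached 10 times. The same fold without the rule on libraries gave 215 features in Peri, 133 in Oligo, 123 in NPC, 74 in OPC and 0 to 27 in the other clusters. Without the nucleus that lacks the 5 markers there were 218, with all 211 among them. Lead features were protein-coding genes in 190 of 210 with an annotation (90.5%, against 79.0% of tested features), and the median length of their genes was 77.4 kb, against 21.6 kb over tested features. Only 113 of the 211 were found by symbol in the deposited expression table. In 119 of them the highest other cluster was Oligo, mostly at its limit of 3 UMIs, so most of these folds are lower bounds. Several of the leading genes make or remodel matrix.

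Adamts12 (chr15:11064790-11349231, plus strand), which encodes a secreted metalloprotease, had 1557 CPM in w1, 3149 in w2 and no UMI in w4. Its level was 197 times (112 to 384) that of NPC, the next cluster, and 189.9 times that of Oligo with its 1 UMI counted as 3. Col4a6 (chrX:141165403-141474076, minus strand), a chain of basement membrane collagen, had 1089 CPM in w1, 834 in w2 and none in w4, 36.7 times (30 to 45.1) RGL. Hmcn1, an extracellular fibulin-like protein, was found in 21 nuclei, with up to 28 UMIs in a w1 nucleus. Lama1 (chr17:67697259-67822647, plus strand), the laminin alpha 1 chain of embryonic and pial basement membranes, had 265, 962 and 1296 CPM in w1, w2 and w4 and was at least 55.0-fold higher than in any other cluster. UMIs in w1 and w2 were required of all 4 genes by the rule, and of the 4 only Lama1 had a UMI in w4.

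Transporters, enzymes and a scavenger receptor made up much of the remaining top. Slc6a20a (chr9:123634770-123678885, minus strand), a proline transporter, was seen in 58 of 60 nuclei with 1078, 1740 and 1134 CPM in w1, w2 and w4, at least 111-fold above any other cluster. Aox3 (chr1:58113130-58200698, plus strand), an aldehyde oxidase, had 906, 1570 and 972 CPM and was at least 99.0-fold higher. Aldh1a2 (chr9:71215789-71296243, plus strand), the enzyme that makes retinoic acid from retinaldehyde, had 417, 467 and 162 CPM and was at least 32.6-fold higher. Colec12, a scavenger receptor with a collagen-like domain, had 926, 1146 and 2592 CPM, 124 times (41.9 to 602) the level of Astro, which had 3 UMIs of it, and 81.0 times that of Oligo with its 1 UMI counted as 3. All 4 were found in w4 as well, which the rule did not require.

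Signals and regulators completed the list. Bmp6 (chr13:38345107-38500302, plus strand), a bone morphogenetic protein, had 1567, 2173 and 972 CPM in w1, w2 and w4, 70.4 times (62.4 to 79.4) the level of GCyoung. Bmp5 (chr9:75775364-75900310, plus strand) had 468, 481 and 324 CPM and was at least 34.7-fold higher. Eya2 (chr2:165595032-165771727, plus strand), a transcriptional coactivator with phosphatase activity, had 794, 1080 and 648 CPM and was at least 71.9-fold higher. Arhgap29 (chr3:121952541-122016753, plus strand), an inhibitor of RhoA, had 1262, 1117 and 162 CPM and was at least 83.7-fold higher. Rbpms, an RNA-binding protein of mural and mesenchymal cells, had 315, 495 and 1944 CPM, 32.8 times (18.6 to 63.1) NPC. The positions are those of GENCODE M21 on GRCm38 and give the whole gene, introns included, since nuclear reads were counted over both.

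The genes were then read by role, from lists. Of 16 tested fibrillar and network collagens 11 had their highest level in Peri and 7 were lead features, with a median ratio of 2.12. Col1a2 and Col3a1, both fibrillar, were each at least 29.4-fold higher than elsewhere, Col1a2 with 356 CPM in w1 and 429 in w2, Col3a1 with 631 and 306. Col5a2 was 22.5 times (10.7 to 57.0) Astro, and Col8a1, a network collagen of basement membranes, 14.5 times (10.8 to 19.5) RGL although only 13 nuclei had a UMI of it. These collagens are all lead features, of which the rule required UMIs in both w1 and w2. They were not all found in every nucleus, and Col5a2 was seen in 60.0% of the nuclei.

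Basement membrane genes were highest in Peri in 16 of 20 and lead features in 8, with a median ratio of 3.11. Beside Lama1 and Col4a6, the laminin gamma 3 chain Lamc3 was at least 21.5-fold and nidogen 1 (Nid1) at least 11.1-fold higher than in any other cluster. Lama2, chosen after its values were seen, was a member that Peri shared with stem cells, with 2028 CPM against 2090 in RGL, a ratio of 0.970 (0.895 to 1.05). Of 23 proteoglycans and matrix glycoproteins 16 were highest and 3 lead features: Dcn, Efemp1 (fibulin 3, 12.5 times Astro, 6.95 to 24.8) and Svep1. Without the nucleus that lacks the 5 markers 15 were highest and 5 lead features, Eln and Ltbp1 being added. With all nuclei Ltbp1, which holds latent TGF-beta in the matrix, fell just short of the 4 times, at 3.93 times OPC (3.15 to 4.92). Over members that reach 20 UMIs outside Peri, the counts highest in Peri were 10 of 15 collagens, 15 of 19 basement membrane genes and 13 of 20 proteoglycans and glycoproteins.

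Among solute carriers and efflux pumps 15 of 26 were highest (11 of 22 that reach 20 UMIs outside Peri) and 8 lead features. Slc7a11, the cystine and glutamate exchanger, was seen in 59 of 60 nuclei. It had 4589 CPM in w1, 6379 in w2 and 648 in w4, 29.9 times (23.3 to 39.0) the level in Astro. The monocarboxylate transporter gene Slc16a12 had 712, 419.6 and 648 CPM, 24.8 times (14.4 to 46.4) OPC. Of the 7 tested genes of GABA uptake and metabolism, only Slc6a13 was highest in Peri, and by the minimum outside Peri, which it does not reach, 0 of 6 were. Slc6a11, the transporter GAT3 of astrocytes, had no UMI.

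Mesenchymal transcription factors were highest in Peri in 20 of the 26 tested (17 of 23 by the minimum outside Peri), with a median ratio of 3.45, and 11 were lead features. Eya2, Tbx18, Zic4 and Bnc2 led them. Zic4, a zinc finger factor of the meninges and the cerebellum, had 610.5, 467 and 324 CPM in w1, w2 and w4, 22.8 times (18.0 to 28.9) RGL. Bnc2, basonuclin 2, had 102, 311 and 1458 CPM and was at least 19.7-fold higher. Of the 40 listed factors 9 had no UMI in Peri, among them Foxc2, Meox1 and Tcf21, picked after the values were seen. Only 36 of the 40 had a UMI in any cluster. Foxc2 and Tcf21 had none in any of them, and Meox1 had at most 8.89 CPM (OPC).

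Signalling genes followed by pathway. In the retinoic acid pathway 13 of 15 genes were highest in Peri (12 of 14 by the minimum outside Peri, which Aldh1a2 does not reach), although only 2 were lead features, among them the enzyme Aldh1a2. The receptor gene Rarb was 3.34 times (2.23 to 5.14) and the second synthesizing enzyme Aldh1a1 3.01 times (1.57 to 6.18) Astro. Among BMP and TGF-beta genes 10 of 21 were highest. The ligands Bmp6 and Bmp5, the co-receptor Tgfbr3 (7.15 times GCmat1, 6.22 to 8.17) and the inhibitory Smad6 (5.93 times Astro, 2.26 to 19.7) were the lead features.

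In the Wnt pathway 12 of 17 were highest. The receptors Ror2 (at least 29.1-fold) and Ror1 (5.75 times GCmat1, 5.02 to 6.55) stood beside the ligands Wnt4 (at least 12.7-fold) and Wnt5a (5.51 times NPC, 3.21 to 9.69), of which Wnt5a is a known ligand of both receptors. In the insulin-like growth factor pathway 9 of 12 were highest. Igf1 was at least 5.55-fold higher, Igfbp2 5.50 times (3.68 to 7.98) GCimm1 and Pappa, a protease that frees the ligand from its binding proteins, 4.90 times (3.98 to 6.04) GCmat2. Igf2 itself had 5 UMIs. Among 31 other secreted signals and receptors 11 were highest, but only the leptin receptor Lepr was a lead feature (5.22 times GCimm2, 4.10 to 6.60), and the share of 35.5% was the lowest of the signalling lists.

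Of 21 adhesion and junction genes 8 were highest (7 of 20 by the minimum outside Peri). Flrt2, a membrane protein that binds unc5 and latrophilin receptors, had 1821 CPM in w1, 891 in w2 and 648 in w4, 15.6 times (12 to 20.4) NPC. Itgbl1 was 5.92 times (4.77 to 7.29) GCimm2 and the collagen receptor subunit Itga1 4.47 times (2.12 to 10.5) Astro. Of 9 imprinted growth genes 5 were highest, and the growth inhibitor Grb10 was the only lead feature, at 9.81 times RGL (7.46 to 12.8).

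At the other end, the lowest level of the 13 clusters, by 4 times or more, was in Peri for 50 features (0.269%), and their genes had a median length of 313 kb. The 5 with the lowest ratio were Stxbp6 (1 UMI), the presynaptic scaffold Rims2 (1 UMI), Dock3 (2 UMIs), the kainate receptor subunit Grik2 (8 UMIs) and the dystrophin gene Dmd (5 UMIs). In the cluster where each was highest, its level was 797 CPM (Rims2 in NPC) to 4063 CPM (Grik2 in GCmat2).

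Some lead genes lie next to each other, and 7 pairs were within 50 kb. The fibrillar collagen genes Col3a1 and Col5a2 are 24614 bases apart on chromosome 1, Lama1 and Arhgap28 20065 bases on chromosome 17, and Arhgap29 and Abca4 27689 bases on chromosome 3. Zic1 and Zic4 overlap on opposite strands of chromosome 9, as do Slc6a20a and Ccr9. By the study's methods STARsolo counted with default parameters, which take the forward strand. The strand setting itself is not stated, so reads in the overlaps are assigned with certainty only if that default was kept. The pairs were picked because both genes are lead features, and the number was not compared with a background.

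The pair Col4a6 and Col4a5 is head to head on the X chromosome, with 1342 bases between the 2 RefSeq starts, and its genes encode chains of 1 basement membrane collagen network. Col4a5 (chrX:141475385-141689234, plus strand; chosen after its values were seen) had 946 CPM in w1, 594 in w2 and no UMI in w4, as Col4a6 had none. It was 7.86 times (6.68 to 9.21) RGL, and both genes were thus next highest in the stem cells. The bases that precede each start are shown as 2 stretches, which do not overlap and leave out the middle of the interval between the starts. They are from RefSeq on GRCm38.p6 and are written 5′ to 3′ on the gene's own strand, with GGGCGG (a GC box) or its complement CCGCCC and CCAAT or ATTGG in capitals. The Col4a5 stretch is chrX:141475169-141475384 (plus strand), without the 34 bases that GENCODE counts as exon, and the Col4a6 stretch is chrX:141474077-141474326 (minus strand).
Col4a5: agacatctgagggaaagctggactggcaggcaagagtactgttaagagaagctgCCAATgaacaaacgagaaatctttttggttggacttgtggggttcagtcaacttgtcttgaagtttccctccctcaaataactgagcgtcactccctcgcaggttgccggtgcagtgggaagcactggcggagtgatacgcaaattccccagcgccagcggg
Col4a6: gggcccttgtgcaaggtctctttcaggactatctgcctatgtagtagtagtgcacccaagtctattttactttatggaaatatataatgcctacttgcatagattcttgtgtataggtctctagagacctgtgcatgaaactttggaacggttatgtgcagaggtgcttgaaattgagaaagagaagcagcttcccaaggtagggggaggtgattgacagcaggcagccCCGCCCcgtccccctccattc
The 216 bases of Col4a5 hold 1 CCAAT, which 31.0% of 27025 mouse genes have in a window of that length, 8 CG dinucleotides (median 5) and 52.3% G or C. The 250 bases of Col4a6 hold 1 CCGCCC, a motif that 32.9% of genes have on either strand, 3 CG dinucleotides (median 6) and 47.6% G or C. Neither stretch has TATAAA on either strand. These are matches of letters and not binding sites.

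Within the label, the nuclei were not alike. Htr2c had the widest spread, from its 1 nucleus, and the next was Trpm3, a cation channel gene of choroid plexus, glia and neurons, named after its values were seen. Trpm3 had 17124 CPM in w1, 14256 in w2 and 34181 in w4, and its UMIs per nucleus ran from 0 to 430. Its variance was 112 times what Poisson counting around each nucleus's depth gives, against a median of 1.75 times over 985 features with at least 60 UMIs. It had UMIs in 44 of the 60 nuclei, and the median nucleus had 45.5. Nuclei with many UMIs and nuclei with few or none were both present in w1 and in w2, where 9 of 18 and 28 of 40 nuclei had 10 or more. The nucleus without the 5 markers had 430, the highest. In GCmat1, the next highest cluster (3201 CPM), 99.6% of nuclei had a UMI and the median was 22, and in Astro (2831 CPM) 83.6% had one and the median was 8.

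Ptgds was uneven as well, at 41.7 times Poisson. It had up to 80 UMIs in a w2 nucleus and 59 in a w4 nucleus, and none in 17 of the 60. Cemip, which encodes a hyaluronan-degrading protein and was named after its values were seen, was at 27.8 times Poisson, with up to 77 UMIs in a nucleus and UMIs in 31. It had 1038 CPM in w1, 1438 in w2 and none in w4, and was 6.59 times (5.95 to 7.29) GCmat1. Cped1 and Slc7a11, by contrast, were seen in 59 nuclei each. Whether the nuclei with and without Trpm3, Ptgds or Cemip are separate kinds of cell was not tested.

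**Figure D3:**
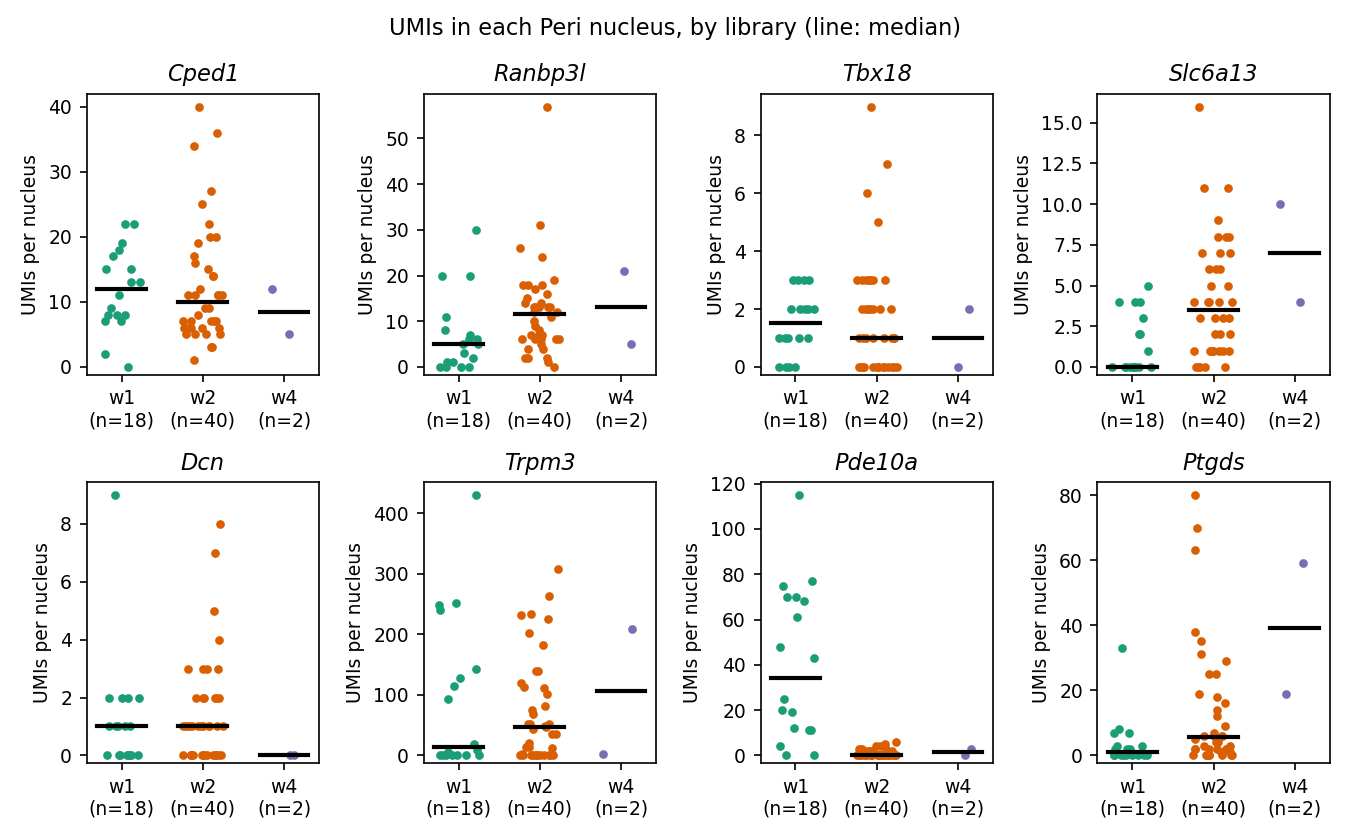
UMIs of 8 genes in each Peri nucleus (points), by library (18 nuclei in w1, 40 in w2, 2 in w4), with the median as a line. Pde10a is high in w1 and at most 6 in w2, Slc6a13 has a median of 0 in w1 and 3.5 in w2, and Trpm3 runs from 0 to 430 within w1.

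The w1 and w2 nuclei were compared over the 2183 features with at least 30 UMIs in Peri. Their profiles correlated at Pearson r = 0.792 over 18568 features (log2 of CPM with 1 added), close to the 0.783 between all Peri nuclei and RGL, so a correlation over all features says little about the identity of the nuclei. Features are not independent replicates. A ratio below has a counting interval only, and a difference between libraries cannot be told apart from a difference between weeks.

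The features highest in w1 by ratio were Htr2c, Grm8, Gmnc and Agbl4, and that choice rested on the 1 nucleus without the 5 markers, which held 245 of 245, 41 of 41, 30 of 30 and 36 of 40 of their UMIs. Without it, the leading gene was Pde10a, a phosphodiesterase that degrades cyclic nucleotides. It had 8245 CPM in the remaining w1 nuclei and 207 in w2, a ratio of 39.7 (29.3 to 55.2), and with all 18 nuclei the ratio was 35.8 (26.4 to 49.6). Single nuclei of 1 pool are not replicates. In w1, 15 of 18 nuclei had 10 or more UMIs of Pde10a. In w2 0 of 40 and in w4 0 of 2 nuclei did. Over all other clusters the w1 level was 0.771 of the w2 level, and in Astro 0.615 on 5 and 7 UMIs, but in RGL it was 3.65 times the w2 level (194 and 53.1 CPM), the direction of Peri. Of the 3 w1 nuclei under 10 UMIs, 2 were female by their sex genes and the third was the nucleus without the 5 markers. All 14 w1 nuclei called male had 10 or more, as did the other female nucleus, with 11.

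Slit2, a guidance protein that binds Robo receptors, was 15.4 times (5.97 to 50.8) higher in w1 without that nucleus, but its UMIs were in only 6 w1 nuclei. The polarity protein gene Mpp7 was 14.5 times (8.17 to 27.6) higher and was found in 15 of 18 w1 nuclei against 11 of 40 in w2. Ppp2r2b, a phosphatase subunit, was 13.9 times (8.40 to 24.4) higher. In the other clusters together w1 was 0.624 of w2 for Slit2, 1.06 times w2 for Mpp7 and 2.92 times w2 for Ppp2r2b. Within RGL the ratios were 1.46, 0.847 and 1.11, and within Astro that of Ppp2r2b was 0.977. Of the matrix genes, chosen after their values were seen, Col5a2 was 4.24 times (3.01 to 6.04), Col3a1 2.30 times (1.60 to 3.31) and Col8a1 5.49 times (3.09 to 10.2) higher in w1 without the nucleus. Igfbp5 was 12.1 times higher (4.54 to 40.3) on 6 nuclei with a UMI in both libraries. The transcription factor gene Ebf1 was 3.67 times (2.53 to 5.35), Grb10 3.30 times with all nuclei, and Ror1 2.39 times (1.81 to 3.15) higher in w1. In the other clusters together w1 was also higher for Ebf1 (2.45 times), Grb10 (2.07 times, but 1.02 in RGL) and Ror1 (1.08 times), and lower for Col5a2 (0.778), Col8a1 (0.495) and Igfbp5 (0.717). For Col3a1 it was 0.558 on 4 and 13 UMIs.

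In the other direction, Gm4221 had 32 UMIs in w2 and none in w1. Cttnbp2, a cortactin-binding protein gene, had 61.0 CPM in w1 and 1075 in w2 and was 17.6 times (7.97 to 48.5) higher in w2, with UMIs in 39 of 40 w2 nuclei and 2 of 18 w1 nuclei. It was also higher in w2 in RGL (2.57 times), in Astro (8.20 times) and over all other clusters (1.15 times). Wnt5b had 20.3 and 283 CPM and was 13.9 times (3.68 to 117) higher. Tbc1d16 was 14.4 times higher, an interval of 2.39 to 585 on 1 UMI in w1. Without the nucleus that lacks the 5 markers, Wdr20 (0 UMIs in w1, 25 in w2) and Ispd (17.8 times, 3.03 to 720.2) took the place of Tbc1d16 and Wnt5b among the 4 largest. In the other clusters together w2 was higher for Tbc1d16 (1.30 times), and w1 for Gm4221 (1.09 times), Wnt5b (1.30 times), Wdr20 (1.13 times) and Ispd (1.43 times). Within RGL w2 was higher for Gm4221 (1.43 times), Wnt5b (1.18 times), Wdr20 (1.12 times) and Tbc1d16 (1.10 times), and w1 for Ispd (1.21 times).

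Some lead features were on the w2 side too, with Ptgds, Slc38a2 and Nnat, which are not lead features. All were picked after their values were seen. Slc6a13 was 3.08 times (2.01 to 4.89), Lama1 3.64 times (2.41 to 5.70), Ptgds 3.78 times (2.93 to 4.94), the amino acid transporter gene Slc38a2 3.71 times (2.20 to 6.68), Nnat 4.85 times (2.95 to 8.52), Adamts12 2.02 times (1.69 to 2.43) and Ranbp3l 1.80 times (1.47 to 2.21) higher in w2. Cped1 (0.916 in w1 over w2, 0.777 to 1.08), Tbx18 (0.832, 0.513 to 1.31) and Dcn (0.791, 0.462 to 1.31) had intervals that held 1. Over the other clusters Ranbp3l was 2.12 times and Ptgds 1.10 times higher in w1, the opposite direction, and for Ranbp3l RGL (1.40 times) and Astro (1.27 times) were on that side too. Adamts12 (1.72 times), Lama1 (1.51 times, on 10 and 12 UMIs) and Nnat (1.35 times) were likewise higher in w1 over the other clusters, but in RGL Nnat was 1.46 times higher in w2, as in Peri, and Adamts12 was 1.43 times higher in w1. Slc6a13 had only 2 (w1) and 7 (w2) UMIs over the other clusters. Ptgds was higher in w2 in RGL (1.40 times) and, on 1 and 3 UMIs, in Astro, as in Peri. Slc38a2 was higher in w2 over the other clusters (1.48 times) and in RGL (1.97 times) as well. The ratio of Trpm3 turned from 1.20 (1.13 to 1.28) to 1.000 (0.935 to 1.07) without the nucleus, and that of Enpp2, the lysophospholipase autotaxin, from 5.82 (4.36 to 7.84) to 0.146 (0.0387 to 0.392).

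**Figure D4:**
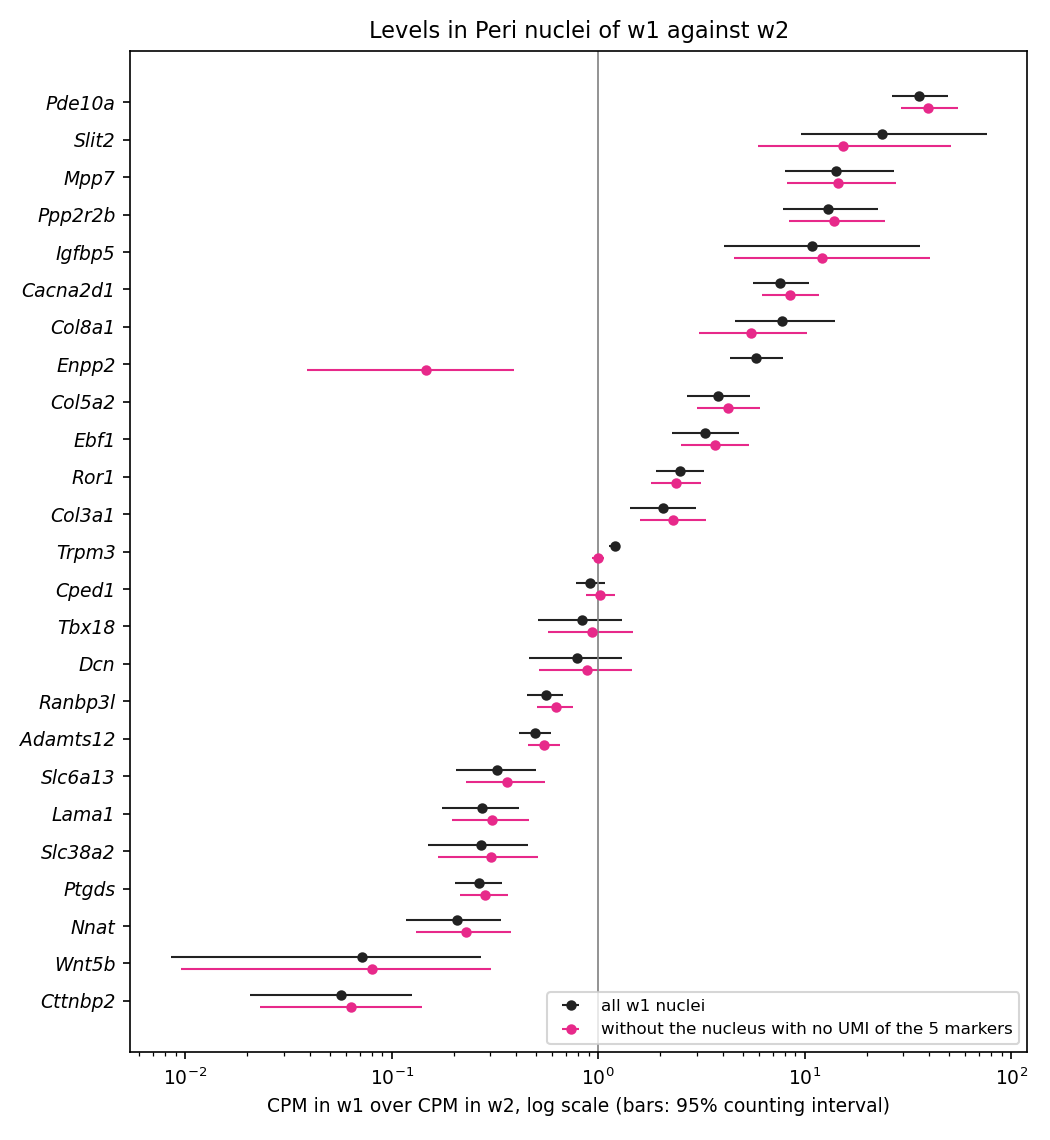
Ratio of the level in Peri nuclei of w1 to that of w2 for each gene on a log axis, with 95% counting intervals, for all w1 nuclei (black) and without the nucleus that has no UMI of the 5 markers (pink). Pde10a is at 35.8 and 39.7, Cttnbp2 at 0.0568 and 0.0635, and Enpp2 changes side from 5.82 to 0.146.

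The sex of single nuclei could be read from Y-linked genes (Ddx3y, Uty and Eif2s3y) against Xist and Tsix, 5 genes that the authors left out of their expression table and that the clusters therefore did not use. In w1, 14 Peri nuclei were male, 3 female and 1 had equal UMIs of both, so that 82.4% (56.6 to 96.2%) of the sexed nuclei were male. In w2, 34 were male and 6 female (85.0%, 70.2 to 94.3%), and both w4 nuclei were female. Over the other 12 clusters the male share was 67.3% in w1, 31.4% (29.9 to 32.8%) in w2 and 18.0% in w4. The Peri and other intervals of w2 did not overlap. Clusters of mostly male w4 nuclei had been left out of the deposited table, so the w4 shares are those of what was kept. RGL nuclei of w2 were 64.9% male (60.1 to 69.5%), so the w2 share also varied among the other clusters. UMIs of both kinds were present in 8 Peri nuclei. With at least 2 UMIs of 1 sex and none of the other required, 25 of 31 w2 Peri nuclei were male (80.6%), against 24.0% in the other clusters of w2. Over all libraries the Y-linked genes Uty and Ddx3y were 2.00 times (1.57 to 2.54) and 1.99 times (1.35 to 2.83) the next cluster, Eif2s3y 1.11 times (0.820 to 1.49), and Xist 0.176 of GCyoung.

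**Figure D5:**
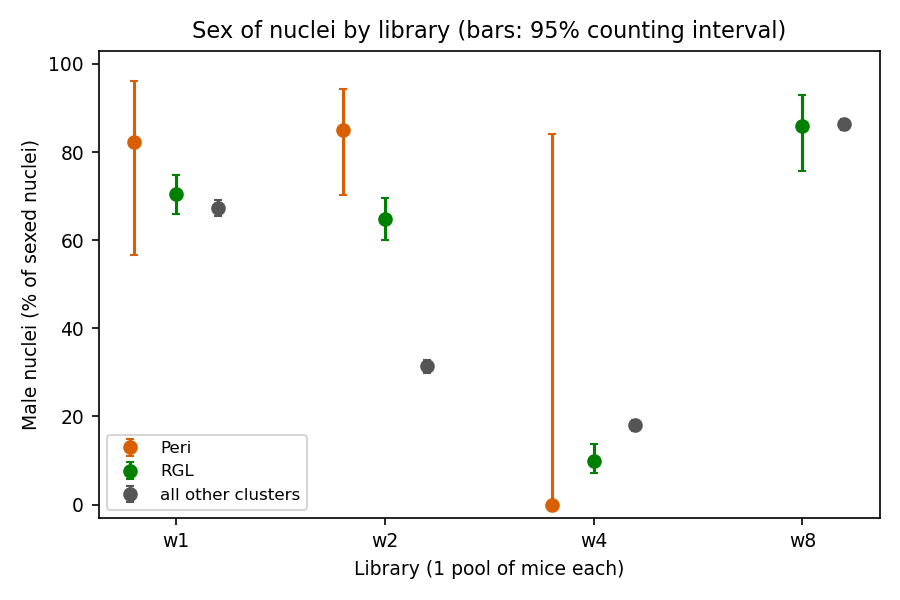
Percent of sexed nuclei that are male in each library, for Peri (orange), RGL (green) and all 12 other clusters (grey), with 95% Clopper-Pearson intervals. In w2 Peri is at 85.0% and the other clusters at 31.4%, and no Peri nucleus was present in w8.

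The 5 markers were finally used to look for such nuclei elsewhere. A barcode with UMIs of at least 3 of the 5 genes and at least 5 UMIs of them in all was a Peri nucleus in 56 cases: 14 of 18 in w1, 40 of 40 in w2 and 2 of 2 in w4. No nucleus of the other 12 clusters met this rule, and 9 of the 2679 barcodes that the authors left out of their table did. By this rule the label held every kept nucleus with this combination of genes, together with 4 nuclei of w1 that lacked it. The 5 genes are the markers of this same set, so the count is no independent check of the label. With at least 2 of the 5 genes required, 15 nuclei of other clusters met the rule.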

How the data were processed

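Nuclei of 4 libraries were counted by the authors with STARsolo over exons and introns, with multi-mapped reads left out. The submitters' processing notes name STARsolo 2.7.4a and mm10. The deposited count files hold whole UMI counts of 45706 features for 17046 barcodes, and the deposited table holds log2 values of counts divided by scran size factors, with 1 added, for 13353 genes and 14367 nuclei, with their cluster. The authors had removed nuclei with few features, doublets (scDblFinder), low-quality nuclei, clusters of mostly male w4 nuclei and nuclei in small graph components. In the deposited files 2679 barcodes are without a cluster.

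Raw counts were summed per cluster and library. Kept nuclei carried 13227971 to 28595331 UMIs per library. The log2 values served as an alternative only. Shares have Clopper-Pearson and ratios exact conditional binomial intervals at 95%, and a count of 0 is given a limit of 3 counts. Mean levels over all features rest on features with at least 20 UMIs, and w1 was set against w2 for those with at least 30 in Peri. Nuclei were thinned to 2000 UMIs for shares. Positions are from GENCODE M21 (45143 features matched) and sequences from RefSeq on GRCm38.p6. No test was made, since each week is 1 library. The ranking was tested on simulated data. Python 3.11.15, numpy 2.4.6, scipy 1.17.1 and pandas 2.3.3 were used.

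The nuclei, marker lists and pathway lists were chosen with earlier results of these data known, and the lists give no independent support. Genes named are the 5 markers, the 15 lead features with a gene symbol and the largest ratio, up to 4 members of each list with the largest ratio, the pericyte list one by one, the 5 lowest features, up to 4 features in each direction for w1 against w2 (also without 1 nucleus), members without a UMI of the leptomeningeal and pericyte lists, Sun1 and the sex genes. Some genes that this rule names, and the Cre driver, are not reported here. Other genes were picked after their values were seen. Alternatives were other folds and UMI minimums, thinning, w1, w2 or w4 left out, and other sets of genes or clusters for the ranking. The log2 values and other marker rules were also tried. The set without 1 nucleus and a stricter sex rule were added after seeing the data.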

Additional observations from a re-analysis of the deposited data

Results flagged for a closer look

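Of the 2679 barcodes that were left out of the deposited table, 9 had UMIs of at least 3 of the 5 marker genes and at least 5 UMIs of them in all, while 0 nuclei of the other 12 clusters did. They were 4 barcodes of w1, 3 of w2, 1 of w4 and 1 of w8, the library without a Peri nucleus. The barcodes had 2490 to 6583 UMIs, UMIs of 6 to 10 of the 12 vascular leptomeningeal markers, 0 to 16 UMIs of the neuron list and a mitochondrial share of at most 0.361%. The w8 barcode was the shallowest and rested on 6 UMIs, 2 each of Cped1, Ranbp3l and Tbx18. Why each was left out is not given in the sources used here, and the part of each filter was not tested.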

How the results depend on the processing

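The number of lead features, 211, was 124 with nuclei thinned to 2000 UMIs, and 388 and 101 with 2 and 8 times in place of 4 times. By a difference of at least 2 in the deposited log2 mean it was 12. That count is over the 13353 genes of the deposited table, in which 113 of the 211 were found by symbol. Leaving out w1, w2 or w4 gave 111 to 184, and w8 was not left out. Without w1 or w2, UMIs were required only in the other of these libraries. The lowest was without w2, which holds 40 of the 60 nuclei, with 96 of the 211 among its 111. The features highest in Peri, 3334 of the 18568 tested, numbered 2846 by CPM over the genes of the deposited table. By the log2 mean of that table they numbered 1904, but out of its 13353 genes. The pericyte markers highest in Peri were 1 to 2 with w1, w2 or w4 left out, 1 without w4. The choroid plexus and ependyma markers highest in Peri fell from 5 to 1 without the nucleus that has no UMI of the 5 markers. The marker rule with at least 2 of the 5 genes found 27 barcodes outside Peri, 15 of them in other clusters. The w1 to w2 ratio of Trpm3, 1.20, was 0.963 with thinned nuclei and 1.000 without that nucleus, and that of Enpp2, 5.82, was 0.146 without it. The cause was not tested where the construction of the alternative does not show it. The share of nuclei per library stayed within its counting interval under all 8 alternatives tried, as did the male share of w2 under the stricter rule. No paired analysis was possible because every week is 1 library and no test was made. Depth limits single genes: 316576 UMIs bound a gene without a UMI at 9.48 CPM, and the w4 nuclei hold 6173 UMIs.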

Other observations

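Other lead features outside the lists, picked after their values were seen, included receptors of cytokines. Il31ra and Osmr, the subunits of the interleukin 31 receptor, had 32 UMIs each. Il31ra had 173 CPM in w1 and 70.7 in w2 and was at least 7.40-fold higher than in any other cluster, and Osmr had 132 and 89.6 CPM and was 4.24 times (1.91 to 10.6) Astro. Il6ra, the receptor of interleukin 6, had 183 and 84.9 CPM, 6.42 times (4.45 to 9.01) GCmat1, and Il13ra1 had 102 and 75.4 CPM and was at least 6.01-fold higher. These 4 genes had 26 to 36 UMIs in Peri, and none had a UMI in the 2 nuclei of w4.

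Secreted proteins and a channel were found at higher counts. Cp, which encodes the copper-carrying ferroxidase ceruloplasmin, had 1526, 966 and 810 CPM in w1, w2 and w4, 9.03 times (7.11 to 11.6) OPC. Apod, the lipid carrier apolipoprotein D, had 539, 1113 and 648 CPM, 9.68 times (6.22 to 15.9) Oligo, and Timp3, an inhibitor of metalloproteases, had 936, 985 and 4374 CPM, 6.43 times (4.81 to 8.74) Astro. The sodium and calcium exchanger gene Slc24a3 had 1363, 2885 and 1134 CPM, 5.01 times (4.62 to 5.42) GCimm2. The mechanosensitive channel gene Piezo2 had 387 CPM in w1 and 377 in w2, 40.9 times (11.1 to 342) Oligo, which had 2 UMIs of it, and 27.3 times with these counted as 3.

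Barcodes with at least 4 of the 8 choroid plexus and ependyma markers were also present outside Peri: 5 in RGL, 1 in NPC and 5 among the left-out barcodes, and 0 in the other clusters.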
